A study of Homo sapiens with 4 samples.

Results

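The Wnt ligands, their receptors and their inhibitors were examined in MDA-MB-231 cells, an established human line from a triple-negative breast cancer, after knockdown of AXL, a receptor tyrosine kinase. The members were picked by name and gene type, and their values served only to choose between repeated copies of a symbol. They were the protein-coding genes whose symbol is WNT or FZD followed by a digit, the co-receptors LRP5 and LRP6, the antagonists DKK1 to DKK4, SFRP1 to SFRP5 and WIF1, the R-spondin receptors LGR4 to LGR6, the ubiquitin ligases RNF43 and ZNRF3, and AXIN1, AXIN2, APC and CTNNB1. This rule met 50 entries of 49 genes, out of 22810 protein-coding entries and 63677 entries in all, and the copy with the higher mean was kept where a symbol occurred more than once. No entry bore the symbol SFRP3. The same gene is listed under its other name, FRZB, at 7 to 17 reads per library, and was not counted as a member.

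Wnt proteins are secreted lipid-modified ligands that bind a Frizzled receptor together with LRP5 or LRP6 at the cell surface. In the canonical branch this stops a complex of AXIN and APC from marking β-catenin, the product of CTNNB1, for destruction, and β-catenin then drives transcription with TCF/LEF factors. RNF43 and ZNRF3 remove Frizzleds from the membrane, and R-spondins, held by LGR4 to LGR6, block them and so raise the response to Wnt. DKK proteins bind the LRP co-receptors, while SFRPs and WIF1 bind the ligands. In breast tissue the pathway takes part in the growth of the gland and in the upkeep of its stem cells, and AXIN2, RNF43, ZNRF3 and LGR5 are textbook targets of β-catenin that feed back on it.

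Cells of 2 libraries (siCt 1 and siCt 2) received a control siRNA and those of the other 2 (siAXL 1 and siAXL 2) a commercial pool of siRNAs against AXL, both carried in by lipofection. Untransfected cells were not analysed here, the time between transfection and harvest is not given in the sources used here, and all libraries come from 1 cell line and 1 siRNA pool. Values are normalized counts, that is reads per gene divided by a library's size factor, so that 1 read is worth 0.959 to 1.08 normalized counts. The libraries held between 39574387 and 44585773 reads. AXL itself stood at 29189 and 30617 normalized counts in siCt and at 8658 and 7141 in siAXL, 26.3% of the control level. Of the markers of the line, VIM, CD44 and EGFR were abundant (at least 6586 reads in each library), while ESR1, PGR and the endothelial gene PECAM1 had at most 3 reads and the leukocyte gene PTPRC at most 17. EGFR rose, from 7355 and 7136 normalized counts to 12921 and 15003 (limma, adjusted p = 0.00166). Of the epithelial and luminal genes, GATA3 was present at 255 to 316 reads, and EPCAM was higher in both siAXL libraries (565 and 625 against 711 and 771 normalized counts) without passing the test (limma, adjusted p = 0.0513), though it passed without siCt 2 (0.0160). CDH1, which encodes E-cadherin, a junction protein that binds β-catenin, was low and fell further, from 90.1 and 94.3 normalized counts to 36.9 and 22.6 (limma, adjusted p = 0.00847), and the part of these genes in the values of the Wnt genes was not tested.

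The test was limma's, run on log2 values of the normalized counts after adding 1, and this scale understates the change of low genes. The fit covered the 16064 genes that passed a filter on low counts, with p-values adjusted over all of them by the Benjamini-Hochberg method, and a gene was called where the adjusted p lay under 0.05. Differences are siAXL over siCt. Values of single libraries are given in the order siCt 1, siCt 2, siAXL 1, siAXL 2, and a pair of values in brackets after them is the log2 difference followed by the adjusted p. The labels do not say whether libraries of a group come from separate cultures, so the p-values measure the spread between these libraries, which may be technical. With 2 against 2 libraries no permutation test can fall below a two-sided p of 0.333, and the calls rest on a spread that limma shares between genes.

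Of the 49 members, 28 passed the filter, and 5 of these were called. FZD8 was higher in siAXL, while LGR4, LGR5, RNF43 and ZNRF3 were lower. These 5 are 17.9% of the tested members, against 18.7% of all genes tested, so the share of members called was close to the background. In the direction of a rise the background was 10.8%, and in that of a fall 7.91%. With each library scaled to its total instead, these shares were 9.56% and 10.9%, and the same 5 members were called. The median log2 difference of the tested members was 0.019, against -0.0022 over all genes tested, with 15 members above 0 and 13 below. In 14 members the libraries of both groups did not overlap, 5 with siAXL above and 9 with siAXL below, while 61.2% of all genes tested were separated in this way (30.6% above and 30.5% below). An unadjusted p under 0.05 was reached by 7 members, where 34% of all genes reached it. By role, all 4 falls lay among the 4 tested genes of the R-spondin receptors and Frizzled ligases, and the 1 rise among the 8 tested Frizzleds, whereas 0 of the 7 tested ligands, 0 of the 2 LRP co-receptors, 0 of the 3 tested antagonists and 0 of the 4 genes of β-catenin and its destruction complex were called. These role groups were drawn up with earlier results of these data known, and no test of one role against another was made. On the recovered reads, edgeR's quasi-likelihood test called the same 5 members and no others (19.4% of all genes), and DESeq2 called FZD8 and LGR4 alone (20.1% of the genes to which it gave an adjusted p).

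**Figure D1:**
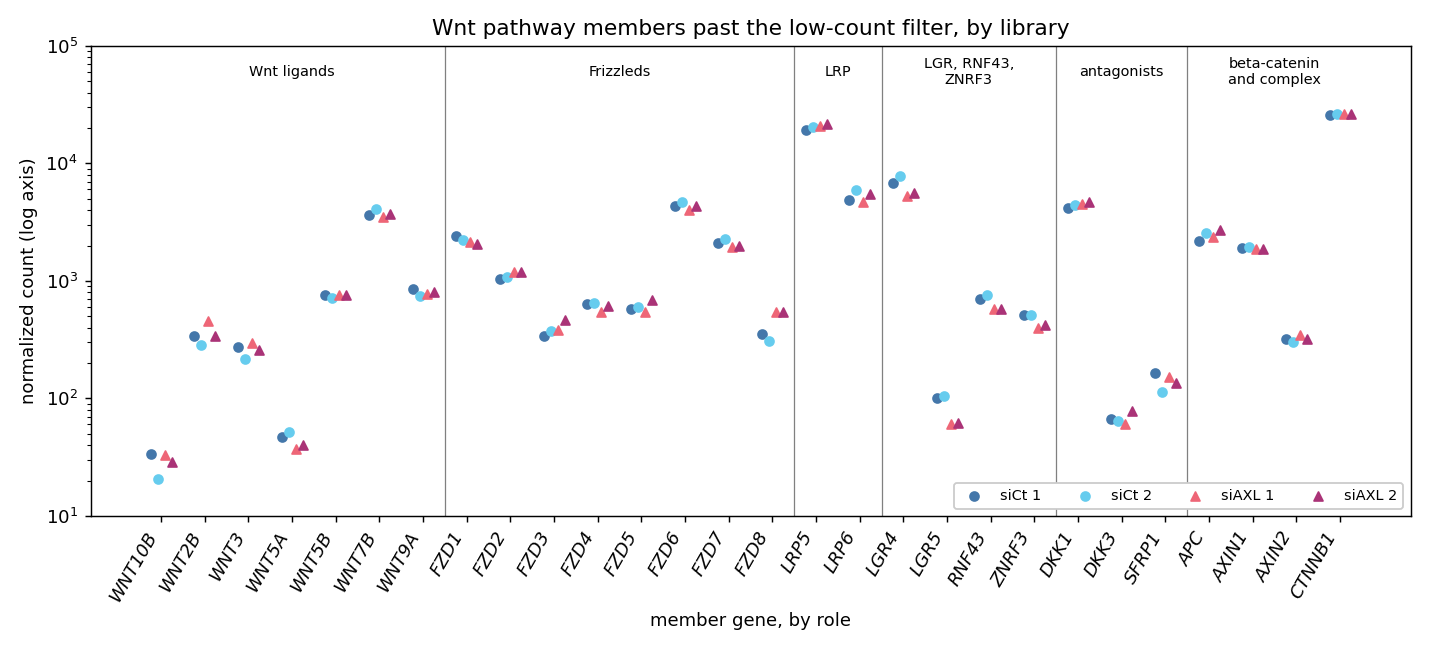
Normalized counts (log axis) of the 28 tested members in each of the 4 libraries, grouped by role, with circles for siCt and triangles for siAXL. LRP5 and CTNNB1 lie at the top and WNT10B and WNT5A at the bottom, and the siAXL triangles lie below the siCt circles in all 4 plotted genes of the LGR, RNF43 and ZNRF3 group.

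The other 21 members gave too few reads for a test. No read at all was found in any library for 11 of them: WNT1, WNT2, WNT6, WNT7A and WNT16 among the ligands, FZD9 and FZD10 among the receptors, and the antagonists DKK4, SFRP2, SFRP5 and WIF1. A count of 0 allows up to 3 reads per library, or 2.88 to 3.25 normalized counts, for counting error alone. The other 10 had reads but never more than 12 in a library. WNT10A reached that number, in siCt 2, with 6, 9 and 4 reads in siCt 1, siAXL 1 and siAXL 2. LGR6 had 5, 4, 5 and 7 reads, WNT4 had 2 to 6, DKK2 had 0 to 6, WNT11, WNT8B and SFRP4 had 0 to 2, and WNT3A, WNT8A and WNT9B had 0 to 1. Thus WIF1 and 3 of the 4 SFRP genes under the rule's names were at or near 0 in both groups, and no difference between the groups was detectable at this depth for any of the 21. Every tested member had at least 19 reads in every library, so that none passed the filter through 1 group alone.

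The level of each tested member was compared with that of the others per kilobase, as normalized counts divided by the length of the gene's merged exons. This length joins the exons of all annotated transcripts and can exceed that of the RNA present, so the order depends on it. It was 11.927 kb for CTNNB1 and 6.164 kb for LRP5. Before this division CTNNB1 (26056 and 26343 in siCt) stood above LRP5 (19352 and 20459). Which transcripts were present was not tested. In siCt the co-receptor LRP5 came first, at 3139.6 and 3319 normalized counts per kb, followed by CTNNB1 (2185 and 2209) and by DKK1, an inhibitor of LRP5 and LRP6 (1895 and 2014). On this scale these 3 did not overlap. LGR4 (1069 and 1236) and FZD6 (1061 and 1164) overlapped. WNT7B, the highest ligand (724 and 815), stood apart from FZD6 above it and from FZD7 below it (543 and 585). LRP6 (474 and 576) overlapped with both FZD7 and FZD2 (488 and 515), and FZD1 followed (345 and 317). From AXIN1 (253 and 259.8) the order ran through WNT9A (214 and 187), APC (174 and 207) and WNT5B (178 and 167), where APC overlapped with both of its neighbours. RNF43 (93.3 and 102), FZD4 (86.2 and 88.3), FZD5 (85.3 and 88.8), FZD8 (87.8 and 76.1) and ZNRF3 (74.0 and 74.3) formed a middle group, in which FZD4, FZD5 and FZD8 could not be ordered beyond their spread. Below them lay AXIN2 (61.8 and 57.8), WNT3 (62.6 and 50.3), SFRP1 (34.8 and 23.7), FZD3 (24.4 and 27.2), WNT2B (27.0 and 22.9), LGR5 (19.2 and 19.8), DKK3 (13.3 and 12.6), WNT10B (12.8 and 7.83) and WNT5A (6.35 and 7.03). Of these, AXIN2 and WNT3 overlapped, as did SFRP1 with FZD3 and WNT2B, and DKK3 with WNT10B. In siAXL, FZD8 stood at 136 normalized counts per kb in both libraries, above FZD4 (74.2 and 82.8) and FZD5 (80.9 and 103).

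Promoter windows are shown for the called members that the RefSeq promoter table holds, FZD8, LGR4 and RNF43, because FZD8 rose where the others fell and because RNF43 is a textbook target of β-catenin. Each window holds the 250 bases before a transcription start in the RefSeq build GRCh38.p14, 5′ to 3′ on the strand of the gene. It was searched on both strands for the core letters bound by TCF/LEF factors, CTTTGA or CTTTGT, and capitals mark a match.
FZD8, chr10:35642297-35642546, minus strand: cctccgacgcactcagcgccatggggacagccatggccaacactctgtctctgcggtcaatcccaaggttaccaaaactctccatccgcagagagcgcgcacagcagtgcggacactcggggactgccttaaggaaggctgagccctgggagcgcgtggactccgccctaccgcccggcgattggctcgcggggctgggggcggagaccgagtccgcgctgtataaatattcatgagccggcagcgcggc
LGR4, chr11:27472791-27473040, minus strand: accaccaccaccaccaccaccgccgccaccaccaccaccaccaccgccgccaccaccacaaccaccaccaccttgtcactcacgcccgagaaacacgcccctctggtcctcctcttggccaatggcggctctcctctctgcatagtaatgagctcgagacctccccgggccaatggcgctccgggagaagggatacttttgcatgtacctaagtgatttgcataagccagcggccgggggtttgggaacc
RNF43, first start, chr17:58417535-58417784, minus strand: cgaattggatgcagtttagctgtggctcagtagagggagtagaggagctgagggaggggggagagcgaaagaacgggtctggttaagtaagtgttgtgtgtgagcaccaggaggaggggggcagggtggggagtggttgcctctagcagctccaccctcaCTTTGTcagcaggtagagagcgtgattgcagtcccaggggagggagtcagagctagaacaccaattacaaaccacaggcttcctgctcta
RNF43, second start, chr17:58402722-58402971, minus strand: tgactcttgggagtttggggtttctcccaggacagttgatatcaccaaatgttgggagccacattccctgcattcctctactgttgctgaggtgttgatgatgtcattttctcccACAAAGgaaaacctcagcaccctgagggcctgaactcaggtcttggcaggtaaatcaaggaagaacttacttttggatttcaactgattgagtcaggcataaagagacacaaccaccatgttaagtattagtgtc
RNF43 held 1 match in each of its windows, CTTTGT at position -90 from the first start and ACAAAG, the same letters on the opposite strand, at position -135 from the second. FZD8 and LGR4 held 0. The letters are common: 22.8% of the 35116 windows of all genes held at least 1 match, as did 5 of the 40 windows (12.5%) of the 33 members that the table covers. Besides RNF43, the members with a match were DKK1, FZD1 and WNT8B. A match is a string of letters and not a measured site, and its absence says only that these letters are not in these bases.

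LGR4, LGR5, RNF43 and ZNRF3, the 4 tested genes of the R-spondin receptors and the Frizzled ligases, were lower in siAXL in limma and edgeR, of which DESeq2 called LGR4. LGR4 (ENSG00000205213), a broadly expressed receptor for R-spondins, stood at 6779 and 7839 normalized counts in the siCt libraries and at 5321 and 5554 in the siAXL libraries. No siAXL library reached the level of a siCt library, as was so in 30.5% of all genes tested. Its mean went from 7309 ± 749 to 5438 ± 164 (SD, n = 2), a log2 difference of -0.42 (SE 0.0773, 95% interval -0.61 to -0.24), with an adjusted p of 0.0131 by limma. The difference lay between -0.53 and -0.32 when each library was left out in turn, and LGR4 was called every time. LGR5 (ENSG00000139292), a receptor of the same family known as a marker of stem cells in the gut, was measured at a much lower level. It gave 101 and 104 normalized counts under the control siRNA against 60.2 and 61.9 under siAXL. At 62 to 105 reads per library, the closeness of 2 replicates does not show how far the gene varies. Its log2 difference was -0.74 (SE 0.160, 95% interval -1.11 to -0.36), the lowest of the tested members, at an adjusted p of 0.0228 in limma. The call of LGR5 was lost without siAXL 1 (adjusted p = 0.0880) or siAXL 2 (0.0694) in limma, and in DESeq2 (0.0931), while the difference stayed between -0.76 and -0.71. LGR6, the remaining receptor, was not tested, and its 4 to 7 reads per library were not lower in siAXL.

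RNF43 (ENSG00000108375) and ZNRF3 (ENSG00000183579) encode related membrane ligases that send Frizzleds to the lysosome. RNF43 went from 700.0 and 765 normalized counts to 577 and 582, that is from 732 ± 45.9 to 579 ± 3.39 (SD, n = 2). ZNRF3 went from 516 and 518 to 400.1 and 418, or from 517 ± 1.44 to 409 ± 12.3 (SD, n = 2). In both genes the siAXL libraries lay below the siCt libraries by more than the distance between replicates. The log2 differences were almost equal, -0.34 (SE 0.0833, 95% interval -0.53 to -0.14) for RNF43 and -0.34 (SE 0.0864, 95% interval -0.54 to -0.13) for ZNRF3, with limma adjusted p-values of 0.0331 and 0.0365. Neither call was firm. RNF43 lost it without siCt 2 (difference -0.27, adjusted p = 0.124), siAXL 1 (0.129) or siAXL 2 (0.108), and ZNRF3 without siCt 1 (0.0548), siCt 2 (0.0826), siAXL 1 (0.178) or siAXL 2 (0.105), all in limma. DESeq2 gave adjusted p-values of 0.0565 and 0.0975. When all 27108 genes with at least 1 read entered limma, none of the 4 genes of this arm was called, at adjusted p-values of 0.0637 (LGR4), 0.0620 (LGR5), 0.0801 (RNF43) and 0.0744 (ZNRF3). Part of the exons of RNF43 is shared, over 143 bases on the same strand, with SUPT4H1, which had 2215 reads per library against 656 for RNF43, and the part of SUPT4H1 in the value of RNF43 was not tested.

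Summed over this arm of the pathway, the siCt libraries held 8101 and 9230.4 normalized counts and the siAXL libraries 6363 and 6622, of which LGR4 made up most. Its ligands were close to absent: RSPO1 and RSPO4 had 0 reads in all libraries, RSPO2 had 0 to 1 and RSPO3 0 to 4. This arm holds the 4 genes called lower, so its sum adds no support of its own. The sum of the secreted antagonists did not overlap between the groups either, at 4415 and 4622 in siCt against 4762 and 4932 in siAXL. The sums of the Wnt ligands and of the Frizzleds overlapped, with 5975 and 6181 against 5845 and 5978 normalized counts for the ligands and 11738 and 12217 against 11322 and 11919 for the Frizzleds. Those of the LRP co-receptors and of β-catenin and its complex overlapped too. In bulk RNA from a culture, a fall in the RNA of each cell and a fall in the number of cells that carry it cannot be told apart.

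**Figure D2:**
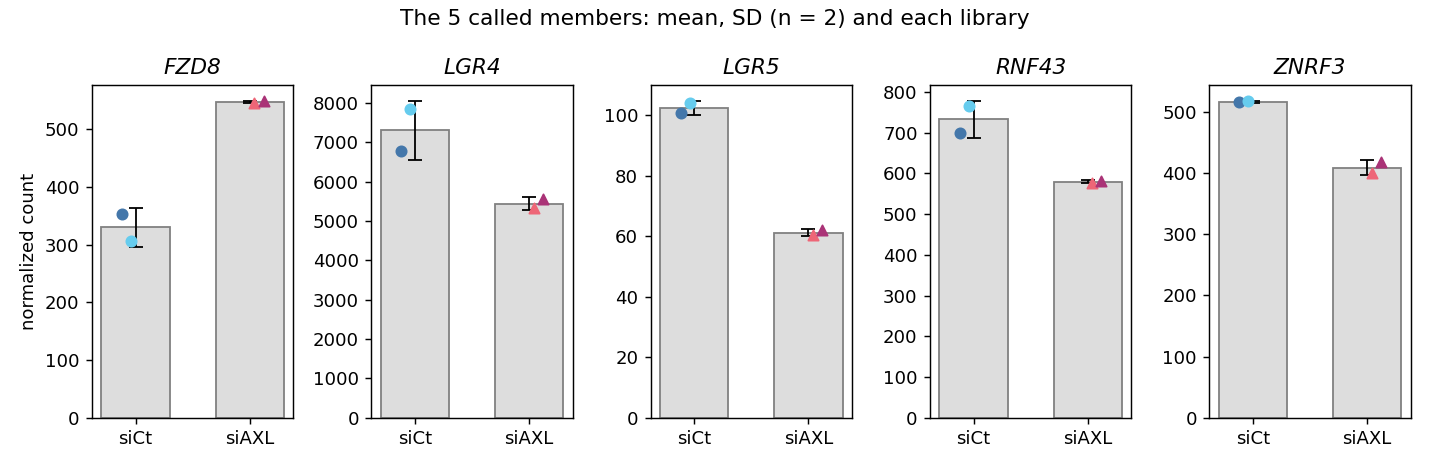
Normalized counts of FZD8, LGR4, LGR5, RNF43 and ZNRF3, with a bar for the mean of each group, an error bar of 1 SD (n = 2) and a point for each library, on axes that start at 0. FZD8 rose from 330 to 548 normalized counts, and the siAXL points of the other 4 genes lie below the siCt points.

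Among the Frizzleds, the receptors of the Wnts, only FZD8 was called in limma, edgeR or DESeq2. FZD8 (ENSG00000177283) stood at 354 and 307 normalized counts in the siCt libraries and at 547 and 549 in the siAXL libraries. With n = 2 the closeness of the siAXL values does not show how far the gene varies. The mean rose from 330 ± 33.4 to 548 ± 1.75 (SD, n = 2), a log2 difference of 0.73 (SE 0.103, 95% interval 0.49 to 0.98) with a limma adjusted p of 0.00562. It remained called with each library left out, at differences from 0.63 to 0.84, and in edgeR and DESeq2. FZD8 had the smallest adjusted p of the tested members, and was the 1 member that was still called when all genes with at least 1 read were tested, where 4.05% of genes were called.

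The other 7 tested Frizzleds were not called, and their differences ran from -0.16 to 0.25 on the log2 scale. FZD6, the Frizzled with the highest level per kb, gave 4311, 4731, 4034 and 4373 normalized counts, with overlapping groups (-0.10, adjusted p = 0.345). FZD7, often named in triple-negative breast cancer, gave 2094, 2258, 1931 and 1974, both siAXL libraries being lower (-0.16, 95% interval -0.31 to -0.0030, adjusted p = 0.141). For FZD1 the values were 2403, 2210.4, 2150.3 and 2074, again lower in siAXL without reaching the threshold (-0.13, 0.232). FZD1 and FZD7 were thus separated by library but not called. FZD2, a receptor of WNT5A in non-canonical signalling, gave 1029.8, 1088, 1189 and 1181, higher in both siAXL libraries (0.16, 95% interval 0.00093 to 0.32, adjusted p = 0.145). FZD3, which acts in planar cell polarity, gave 337, 375, 381 and 469, also higher in siAXL (0.25, 0.216). FZD4, a receptor of norrin as well as of Wnts, gave 637, 652, 548 and 611 (-0.16, 0.267). Here the siAXL libraries were the lower, yet FZD4 shares 1399 exonic bases on the opposite strand with PRSS23, which had 17357 reads per library against 613, and the strand setting of the counting is not given in the sources used here. FZD5 gave 572, 596, 543 and 688, with the siAXL libraries on either side of siCt (0.065, 0.752). All p-values here are limma adjusted p-values.

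**Figure D3:**
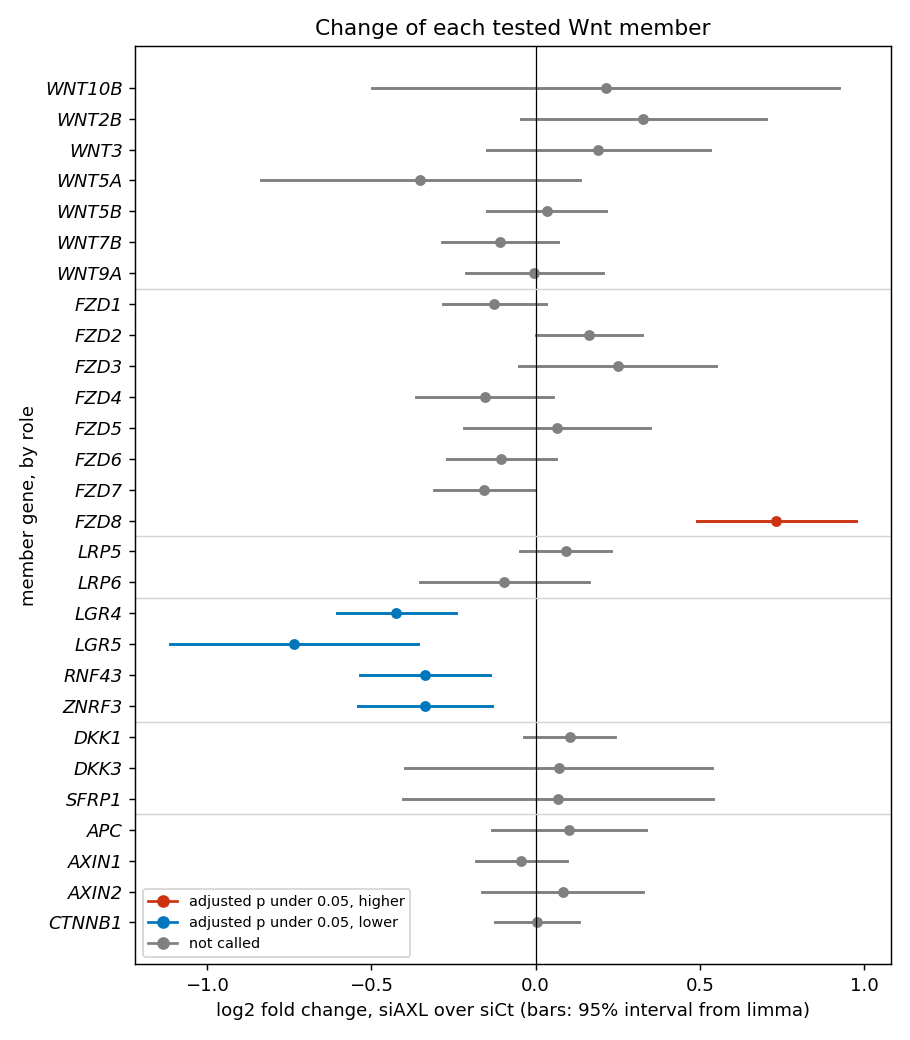
Log2 difference (siAXL over siCt) of each tested member with its 95% interval from limma, by role from ligands at the top to β-catenin and its complex at the bottom. The interval lies above 0 with an adjusted p under 0.05 for FZD8 and below 0 for LGR4, LGR5, RNF43 and ZNRF3, while most of the others span 0.

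Of the 19 Wnt ligands, 7 were tested and 0 were called in limma or edgeR, with 0 at an unadjusted p under 0.05 in limma. Over all genes tested, limma called 18.7% and gave 34% an unadjusted p under 0.05. The 7 ligands are few to set against these shares. DESeq2 called 0 of 5 and gave WNT10B and WNT5A no adjusted p. WNT7B, a mostly canonical ligand, gave 3658, 4118, 3473 and 3730.0 normalized counts (-0.11, 95% interval -0.29 to 0.068, adjusted p = 0.355). It made up most of the sum of the ligands. WNT9A gave 851, 744, 781 and 807 (-0.0036, 0.982, a sign that turned with TMM scaling and in edgeR), and WNT5B, a non-canonical ligand, gave 766, 718, 755 and 764 (0.034, 0.802). The groups overlapped in all 3. WNT5A, the non-canonical ligand best known from cell migration, was low, at 47.0 and 52.0 in siCt and 36.9 and 40.3 in siAXL. It was the 1 tested ligand whose groups did not overlap, as 61.2% of all genes tested did not, at a difference of -0.35 with a wide 95% interval (-0.84 to 0.13, adjusted p = 0.280). WNT3, a canonical ligand, gave 271, 218, 298 and 258 (0.19, 0.402), and WNT10B, also canonical, gave 33.6, 20.6, 33.0 and 28.5 (0.21, 0.669). WNT10B was so low that its interval ran from -0.50 to 0.92. WNT2B gave 339, 287, 454 and 339 (0.33, 95% interval -0.046 to 0.70, adjusted p = 0.195), so that 1 siAXL library stood above the other 3. Without siCt 1 it was called (0.45, limma adjusted p = 0.0194). WNT2B shares 2661 exonic bases on the opposite strand with ST7L, which had 825 reads per library against 358.

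The co-receptors LRP5 and LRP6 pair with a Frizzled when Wnt binds. LRP5 gave 19352, 20459, 20776 and 21624 normalized counts, with both siAXL libraries slightly above siCt (0.091, 95% interval -0.047 to 0.23, limma adjusted p = 0.324). LRP6 gave 4901, 5955, 4676 and 5468 (-0.095, 95% interval -0.35 to 0.16, limma adjusted p = 0.590). In LRP6 the libraries numbered 2 were above those numbered 1 in both groups. Without siCt 1 the difference was -0.24 and LRP6 was called (adjusted p = 0.0437), and without siCt 2 it was 0.045.

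The tested antagonists were DKK1, DKK3 and SFRP1, and none of these 3 was called in limma, edgeR or DESeq2. DKK1, which blocks LRP5 and LRP6, was the antagonist with the highest level and gave 4179.8, 4443, 4549 and 4712 normalized counts. Both siAXL libraries were above siCt, by a difference that did not pass the test (0.10, 95% interval -0.035 to 0.24, limma adjusted p = 0.265). SFRP1, a decoy that binds Wnts, gave 166, 113, 152 and 136 (0.067, 95% interval -0.40 to 0.54, adjusted p = 0.848). DKK3, a divergent member of the DKK family, gave 67.1, 63.9, 60.2 and 78.6 (0.070, 0.841). The groups overlapped in SFRP1 and DKK3, and an interval this wide leaves a moderate change undetectable. Unadjusted p-values under 0.05 numbered 0 among the antagonists in limma, against 34% of all genes tested, where 18.7% were called. The 3 tested antagonists are few to set against these shares.

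None of CTNNB1, AXIN1, APC and AXIN2, the 4 genes of β-catenin and its destruction complex, was called in limma, edgeR or DESeq2. In limma 0 of them had an unadjusted p under 0.05. Over all genes tested, limma called 18.7% and gave 34% an unadjusted p under 0.05, and 4 genes are few to set against these shares. CTNNB1 (ENSG00000168036) gave 26056, 26343, 26098 and 26451 normalized counts, a difference of 0.0041 with a 95% interval of -0.12 to 0.13 (limma adjusted p = 0.968) and a sign that turned with scaling to the library total. AXIN1, a scaffold of the complex, gave 1896, 1945, 1869 and 1858 (-0.043, 95% interval -0.18 to 0.096, adjusted p = 0.658). APC, the tumor suppressor of the complex, gave 2166, 2579, 2383 and 2701 (0.10, 95% interval -0.13 to 0.34, adjusted p = 0.522). AXIN2 (ENSG00000168646), the inducible scaffold that is commonly read as a gauge of canonical signalling, gave 323, 302, 344 and 318 (0.082, 95% interval -0.16 to 0.33, adjusted p = 0.629). Its groups overlapped. The intervals of RNF43 and ZNRF3, textbook targets as AXIN2 is, overlapped with that of AXIN2, and that of LGR5 did not. The difference between AXIN2 and those genes was not tested.

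**Figure D4:**
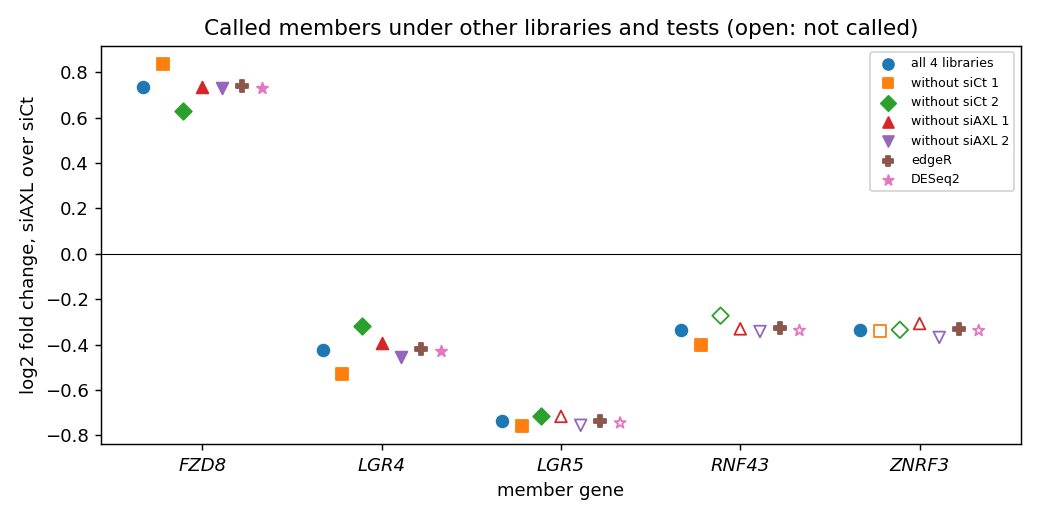
Log2 difference of the 5 called members with all libraries, with each library left out and with edgeR and DESeq2 on the recovered reads, filled symbols marking an adjusted p under 0.05 and open symbols the rest. FZD8 and LGR4 are filled throughout, LGR5, RNF43 and ZNRF3 turn open in several settings, and no symbol crosses 0.

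The surrounding pathway was read from 3 lists written by hand from general knowledge, also with earlier results of these data known. Of 47 other core genes of canonical signalling (secretion factors, Dishevelleds, kinases, TCF/LEF factors, further inhibitors), 37 were tested, and 5 were called higher and 3 lower, or 21.6% against 18.7% of all genes. Their median difference was -0.010. SOST, which encodes the LRP inhibitor sclerostin, showed the smallest adjusted p of this list and fell from 222 and 202 normalized counts to 89.4 and 81.6 (-1.30, SE 0.140, adjusted p = 0.00276). TRABD2A, a membrane protease that inactivates Wnt proteins, rose from 102 and 113 to 193 and 192 (0.84, adjusted p = 0.00840), and its exons overlap by 13 bases on the opposite strand with TMSB10, at 39148 reads per library against 151. Both were called with any 1 library left out. WLS, the carrier that brings Wnts to the cell surface, rose from 5771 and 5989 to 7235 and 7139 (0.29, 0.0134), a call lost without siAXL 1 (0.0707) or siAXL 2 (0.0530). TCF7L1, a mainly repressive TCF factor, rose from 22.1 and 17.3 to 61.2 and 45.2 (1.38, 0.0154), a call lost without siAXL 1 (0.0812) and to which DESeq2 gave no adjusted p. KREMEN1, a receptor for DKK proteins, rose from 219 and 169 to 303 and 337 (0.73, 0.0186), lost without siAXL 2 (0.0637). In each of these 3 genes both siAXL libraries lay above both siCt libraries, as in 30.6% of all genes tested. TLE3, a co-repressor that acts with TCF factors, fell from 3275 and 3567 to 2844 and 2853 (-0.26, 0.0305), lost without siCt 2 (0.122), siAXL 1 (0.115) or siAXL 2 (0.101). The other calls were KREMEN2, higher, and DVL2, lower, and both were lost without siCt 2, siAXL 1 or siAXL 2. KREMEN2 passed the filter through its siAXL libraries (9.59 and 8.67 normalized counts in siCt), had no adjusted p in DESeq2, and shares 360 exonic bases on the opposite strand with PKMYT1, at 1102 reads per library against 15.8. LEF1, TCF7 and TCF7L2 were expressed, at 174 to 248, 110 to 125 and 1413 to 1806 reads per library, and were not called. TCF7 shares 210 exonic bases on the opposite strand with SKP1, at 13917.5 reads per library against 114.5. All p-values in this paragraph are adjusted p-values from limma.

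Of 24 genes of planar cell polarity and other non-canonical branches, 22 were tested, with 5 called higher and 2 lower (31.8%, against 18.7% of all genes) and a median difference of 0.077. VANGL1, a core polarity protein, rose from 2905 and 2556 normalized counts to 4559 and 4923 (0.80, SE 0.0780, adjusted p = 0.00222). PTK7, a Wnt co-receptor without kinase activity, rose from 1580.2 and 1534 to 2236 and 2206 (0.51, SE 0.0597, adjusted p = 0.00334). VANGL1 and PTK7 kept their calls without any 1 library. RAC1, a GTPase of the actin cytoskeleton, rose from 11577 and 11133 to 13667 and 14381 (0.30, 0.0140), lost without siAXL 2 (0.0746). CELSR1, a polarity cadherin, rose from 499 and 554 to 663 and 696 (0.37, 0.0310), lost without siCt 1 (0.0648), siAXL 1 (0.0856) or siAXL 2 (0.134). All 4 genes named so far were higher in both siAXL libraries than in either siCt library, as were 30.6% of all genes tested. PRICKLE1, which sits opposite the Frizzleds in polarized cells, fell from 726 and 762 to 564 and 567 (-0.39, 0.0170), lost without siAXL 1 (0.0736) or siAXL 2 (0.0648), and it overlaps PPHLN1 on the opposite strand. DAAM1, a formin that binds Dishevelled, fell from 2313 and 2494 to 1885 and 1956 (-0.32, 0.0181), lost without siAXL 1 (0.0862). The remaining call, CAMK2D, was higher and was lost without siCt 2, siAXL 1 or siAXL 2. The Wnt5a receptor ROR2 had at most 2 reads in a library. In the same list the receptors ROR1 and RYK were expressed, at 2929 to 3626 and 2236 to 2641 reads per library. Neither ROR1 (-0.23, 0.166) nor RYK (0.092, 0.345) was called. These p-values, too, are limma adjusted p-values.

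Of 28 textbook targets of β-catenin, 20 were tested, and 3 were called higher and 3 lower (30.0%, against 18.7%), at a median difference of 0.042. The called genes of this list therefore did not move one way. The textbook targets AXIN2, LGR5, RNF43 and ZNRF3 were counted with the members and not here. Of these, LGR5, RNF43 and ZNRF3 were called lower in limma and AXIN2 was not called. PTGS2, which encodes cyclooxygenase, fell from 2878 and 3073 normalized counts to 2229 and 2300.3 (-0.39, SE 0.0619, adjusted p = 0.00823), and L1CAM, an adhesion molecule, rose from 2527 and 2304 to 3921 and 3275 (0.57, SE 0.0946, adjusted p = 0.00965). These calls held without any 1 library. BMP4, a growth factor, fell from 8614 and 8535 to 7031 and 6481 (-0.34, 0.0111), lost without siAXL 2 (0.0576). TIAM1, an activator of RAC1, rose from 624 and 697 to 840.1 and 1010.1 (0.48, 0.0257), lost without siAXL 2 (0.105). SP5, a transcription factor, rose from 130.4 and 129 to 186 and 191 (0.53, 0.0279), lost without siAXL 1 (0.108) or siAXL 2 (0.123) and in DESeq2 (0.0985). Libraries of the groups did not overlap in any of the 3, nor in 61.2% of all genes tested. CCND1, which encodes cyclin D1, fell from 32432 and 32760.0 to 28078 and 27789 (-0.22, 0.0320). Its call was lost without siCt 1 (0.101), siCt 2 (0.157), siAXL 1 (0.143) or siAXL 2 (0.155), and it shares 497 exonic bases on the opposite strand with LTO1, at 1472 reads per library against 30312. The feedback inhibitor NKD1 had at most 1 read in a library. The p-values are adjusted p-values from limma.

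**Figure D5:**
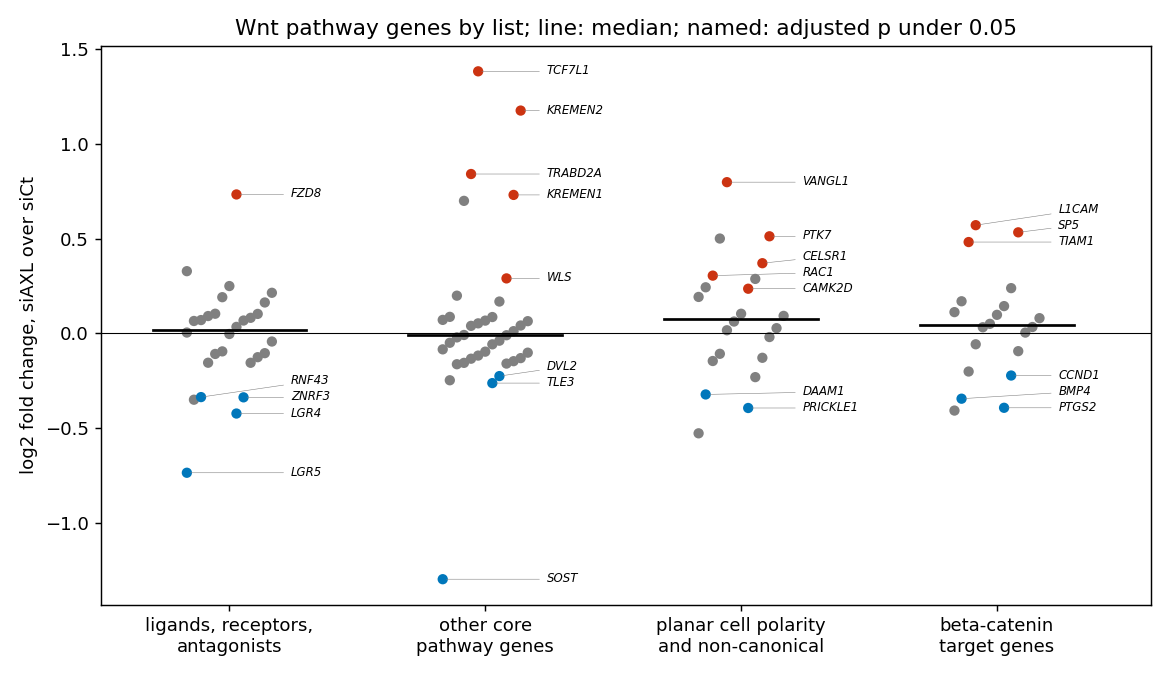
Log2 difference (siAXL over siCt) of the tested members and of the tested genes of the 3 other lists, 1 point per gene, with a line at each median and a name for each gene with an adjusted p under 0.05. The medians lie between -0.010 and 0.077, and each set holds called genes on both sides of 0.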

How the data were processed

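RNA was sequenced by the authors from 2 siCt and 2 siAXL libraries, grouped here by their labels. Per the submitters' processing notes, CASAVA 1.8, TopHat2 2.0.10, HTSeq 0.5.3, DESeq2 1.4.5 and the GRCh37 build were used, while the annotation release and the strand setting are not given in the sources used here. The authors deposited 1 table of normalized counts, a signal made from reads per gene divided by a DESeq2 size factor. Its columns of the authors' own comparison (log2 fold changes with their standard errors, a Wald score, p-values and adjusted p-values) were not used.

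In each library 100% of values gave whole reads (tolerance 0.05 reads) when divided by what 1 read was worth, and these reads were recovered. Of 63677 genes, the 16064 passing edgeR's filterByExpr (minimum count 10) were tested with limma 3.58.1 (trended eBayes, no covariates, R 4.3.3) on log2(normalized count + 1). On the recovered reads, edgeR 4.0.16 called 3122 genes, and DESeq2 1.42.0 called 2596 of the 12918 to which it gave an adjusted p. Other alternatives were TMM and library total scaling, no filter beyond 1 read, pseudocounts of 0.5 and 8, a replicate block, and each library left out. Intervals are 95% intervals, and a count of 0 was taken to allow 3 reads. Lengths and overlaps are from GENCODE 29, by Ensembl identifier, and promoter windows from RefSeq (GRCh38.p14). The fits were tested on simulated data.

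The members and the 3 lists were chosen with earlier results of these data known. By rule, each tested member is given with its value in every library and the others by counts, and of each other list up to 6 called genes with the smallest adjusted p. Outside this rule RSPO1 to RSPO4, LEF1, TCF7, TCF7L2, ROR1, ROR2, RYK and NKD1 were picked by hand, and none of them was called.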

Additional observations from a re-analysis of the deposited data

How the results depend on the processing

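With 2 libraries per group, the fits in which a group keeps 1 library assume that this library varies like the rest, and the causes of the changes below were not tested. Over the 28 tested members and 12 alternatives, 290 single values kept their sign and their side of the threshold, 12 gained a call, 16 lost it and 16 turned in sign, and DESeq2 gave no adjusted p for WNT10B and WNT5A. Turned values were all small or uncalled: WNT9A was 0.0055 with TMM scaling and 0.00081 in edgeR, and CTNNB1 was -0.025 with scaling to the library total. With each library left out the differences ranged from -0.13 to 0.55 for WNT10B, -0.012 to 0.080 for WNT5B, -0.10 to 0.092 for WNT9A, -0.11 to 0.24 for FZD5, -0.24 to 0.045 for LRP6, -0.12 to 0.26 for DKK3, -0.21 to 0.34 for SFRP1, -0.023 to 0.23 for APC and -0.0056 to 0.014 for CTNNB1. TMM scaling moved the median of all genes by 0.0090 and the library total by -0.029, and the latter gave 1536 genes higher and 1745 lower, against 1735 and 1271.

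Members called higher numbered 1 to 2 and members called lower 1 to 4 with each library left out, while over all genes the counts ran from 872 to 2158 higher and from 413 to 1742 lower. Over the same fits the other core genes had 2 to 5 higher and 1 to 5 lower, the non-canonical genes 2 to 4 and 0 to 3, and the β-catenin targets 1 to 3 and 1 to 4. Without a filter beyond 1 read, 757 genes were higher and 340 lower of 27108. Among them were 1 member higher (FZD8) and 0 lower, with LGR4 at an adjusted p of 0.0637 in limma. Core genes numbered 2 higher and 1 lower, and non-canonical genes 2 and 1. Of the targets, 0 were higher, and BMP4 and PTGS2 were still called lower. DESeq2 called 1 member lower (LGR4) and 3 core genes higher, with no adjusted p for TCF7L1 and KREMEN2, and scaling to the library total called 6 core genes lower.

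The labels number the libraries of both groups 1 and 2. Deviations of same-numbered libraries from their group means correlated at r = 0.27 over 16064 genes, but with 2 pairs and no statement of a shared batch or day the number was not taken to pair them. With the replicate block 6 of the 28 tested members were called higher and 9 lower, the 5 called members among them. Over all genes tested the block called 45.5%, with 3737 higher (23.3%) and 3573 lower (22.2%). It gave 6 core genes higher and 11 lower, 9 and 5 non-canonical genes, and 7 and 6 targets.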
